A study of Mus musculus with 8 samples.

Results

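The 10 genes described here encode enzymes and helpers that act on newly made collagen, and were chosen by name: *P4ha1*, *P4ha2*, *P4hb*, *Plod1*, *Plod2*, *Plod3*, *Serpinh1*, *Lox*, *Loxl2* and *Pcolce*. They are 10 of the 43629 genes in the count table, all 10 had counts, and 8 were among the 3793 genes with enough counts to be tested between zones. The other two, *Plod3* and *Lox*, were read from a second fit over the 17492 genes with at least 1 count. The data came from the growth plates of 4 mice, with 1 library of each zone per mouse. All mice carried Axin2CreERT2;R26RTdTomato, received daily tamoxifen starting on postnatal day 23 and were analyzed on day 30, with mice 1 and 2 labelled as males, mice 6 and 13 as females. Resting chondrocytes were cut by laser microdissection (LMD) as TdTomato-positive cells, and proliferative chondrocytes as unlabeled cells recognized by position and flat shape, from 8 µm frozen sections of the hind limb growth plate (tibiae in the sample labels, tibial and femoral in the paper). The zones therefore shared genotype, treatment and age. Because the *Axin2* promoter drives the tamoxifen-dependent Cre, the label marks cells that used this promoter at injection together with their descendants, and any other cell in the dissected area enters the library too.

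Fibrillar collagen chains are modified in the endoplasmic reticulum before they leave the cell. Prolyl 4-hydroxylase makes the hydroxyproline that keeps the triple helix stable at body temperature, lysyl hydroxylases make the hydroxylysine used for sugar attachment and for crosslinks, and the chaperone Hsp47 holds the folded helix. Outside the cell the propeptides are cut off, and lysyl oxidases convert lysine and hydroxylysine side chains into the aldehydes from which crosslinks form. The hydroxylases need molecular oxygen, iron and ascorbate, and several of their genes are known targets of the hypoxia-inducible factor HIF-1, which is active in the poorly vascularized growth plate.

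HIF-1 is known to bind the core letters ACGTG or GCGTG, and the promoters of the prolyl 4-hydroxylase subunits, the chaperone and *Plod1* are printed here for this reason. Each sequence is the 250 bases before the RefSeq start of the gene on GRCm38.p6, written 5′ to 3′ on the strand of the gene, with ACGTG or its reverse complement CACGT in capitals. The windows were chr10:59323046-59323295 on the plus strand for *P4ha1*, chr11:54100674-54100923 on the plus strand for *P4ha2*, chr11:120573254-120573503 on the minus strand for *P4hb*, chr7:99353240-99353489 on the minus strand for *Serpinh1* and chr4:147936777-147937026 on the minus strand for *Plod1*.
P4ha1: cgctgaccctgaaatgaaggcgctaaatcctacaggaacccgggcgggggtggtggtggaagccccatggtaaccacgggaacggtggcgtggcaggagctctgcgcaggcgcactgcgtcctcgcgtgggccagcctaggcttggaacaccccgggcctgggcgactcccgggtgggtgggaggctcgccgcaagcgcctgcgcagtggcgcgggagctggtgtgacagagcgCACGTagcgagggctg
P4ha2: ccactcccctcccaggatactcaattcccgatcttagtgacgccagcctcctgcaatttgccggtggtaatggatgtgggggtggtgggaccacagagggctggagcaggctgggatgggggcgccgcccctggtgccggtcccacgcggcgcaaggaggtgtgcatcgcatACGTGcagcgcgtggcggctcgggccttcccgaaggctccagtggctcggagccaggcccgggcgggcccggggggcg
P4hb: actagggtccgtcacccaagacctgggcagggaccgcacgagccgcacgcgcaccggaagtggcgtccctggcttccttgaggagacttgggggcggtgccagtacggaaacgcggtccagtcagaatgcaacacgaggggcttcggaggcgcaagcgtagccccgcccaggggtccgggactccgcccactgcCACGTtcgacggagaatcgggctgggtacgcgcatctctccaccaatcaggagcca
Serpinh1: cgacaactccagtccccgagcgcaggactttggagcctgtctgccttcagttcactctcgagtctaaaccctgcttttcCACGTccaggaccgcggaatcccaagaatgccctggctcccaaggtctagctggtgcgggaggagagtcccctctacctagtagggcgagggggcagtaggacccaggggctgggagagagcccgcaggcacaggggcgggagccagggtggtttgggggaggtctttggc
Plod1: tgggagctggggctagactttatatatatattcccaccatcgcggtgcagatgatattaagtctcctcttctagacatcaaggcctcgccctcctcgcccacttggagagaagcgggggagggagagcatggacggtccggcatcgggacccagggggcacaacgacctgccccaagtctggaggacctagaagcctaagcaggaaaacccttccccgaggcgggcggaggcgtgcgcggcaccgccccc
The *Plod1* window, which held no ACGTG on either strand, is shown for contrast in that motif only. It held GCGTG 20 to 16 bases before the start, and the *Serpinh1* window held no GCGTG. Matches of GCGTG are not marked in the sequences. ACGTG lay 16 to 12 bases before the start in *P4ha1*, 78 to 74 in *P4ha2*, 56 to 52 in *P4hb* and 171 to 167 in *Serpinh1*. Over both strands, 5 of the 7 promoters searched held ACGTG, the fifth being that of *Plod3* (54 to 50), against 16.6% of 32841 mouse promoter windows of this length. GCGTG stood in 6 of the 7, against 28.2% of all windows, and no match of one motif overlapped a match of the other. *Plod2*, *Loxl2* and *Lox* were not searched. The *Plod3* window overlaps an exon of *Znhit1* and the *Pcolce* window an exon of *Pcolce* itself. The *P4ha2* window overlaps no exon, but it lies within that gene as placed by GENCODE, which sets the start at 54100095. Both motifs contain CG, the windows of the members held at least 55.6% G and C, and the shares over all windows were not matched for this. A match describes the letters in the window and shows no binding.

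Counts are given as deposited, and levels as counts per 1000000 (CPM) on the genes tested, scaled by trimmed mean of M values (TMM) factors. Library totals ran from 192882 to 462044 counts in the resting zone and from 249284 to 631474 in the proliferative zone. A limit of 3 counts corresponded to 6.54 to 16.2 CPM in the resting zone and 5.26 to 13.6 CPM in the proliferative zone, so the lowest members were measured with few counts. The 9 chondrocyte markers were all detected in both zones, with a summed level of 7497 to 19023 CPM in resting and 35126 to 62402 CPM in proliferative libraries. Osteoblast and osteocyte markers summed to 9653 to 40346 CPM in resting libraries and 749 to 4330 CPM in proliferative libraries, and *Col1a1* and *Col1a2* made up 86.2% to 98.9% of that sum. Resting libraries also held more counts of blood and osteoclast markers (7168 to 12453 CPM, against 17.5 to 1958 CPM) and endothelial markers (156 to 319 CPM, against 1.87 to 14.9 CPM), and of the 7 endothelial genes *Flt1*, *Kdr* and *Pecam1* were at 0 in all proliferative libraries. Of the 11 osteoblast and osteocyte genes 5 were tested, *Col1a1* and *Col1a2* were called toward the resting side, and *Alpl* (log2 fold change 0.71), *Dmp1* (2.79) and *Sp7*, the osteoblast transcription factor (−1.30, 16.5 ± 7.32 against 42.1 ± 11.3 CPM), were not called. Of the blood and osteoclast genes 9 of 10 were tested and 7 called toward the resting side. The 5 markers of hypertrophic chondrocytes split. *Col10a1*, the collagen of hypertrophic cartilage, was called higher in the proliferative zone (8.59 ± 11.4 against 207 ± 145.6 CPM, log2 fold change −4.28, edgeR adjusted p = 0.00139), and *Ihh*, a signal of prehypertrophic cells, had 0 counts in resting and 39 in proliferative libraries. *Mmp13* (4.66) and *Spp1* (3.54) were called toward the resting side and *Ibsp* (3.82) was not called. With the mouse as a block *Ibsp* (edgeR adjusted p = 0.00280) was called as well, and so were all 9 tested blood and osteoclast genes. The list summed to 996 to 2338 CPM in resting and 78.9 to 619 CPM in proliferative libraries. The part of these cells in the differences below was not tested.

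Most of the collagen-modifying genes were higher in the proliferative zone. *P4ha1*, *P4ha2*, *P4hb*, *Plod1*, *Plod2* and *Serpinh1* passed the test in that direction, at 2.84-fold to 7.19-fold, which is 6 of the 8 tested members. Over all tested genes 6.93% were called in this direction, 11% in the other and 18% in either. Of the 8 tested members, 7 had zones without overlap and all 7 were higher in the proliferative zone, against 15.1% of tested genes with that pattern. *Loxl2* and *Plod3* pointed the same way without passing the threshold, *Pcolce* pointed the other way without passing it, and *Lox* rose in the resting zone. A gene was called at an adjusted p below 0.01 with a log2 fold change beyond 1 in edgeR's quasi-likelihood test, and log2 fold changes are resting over proliferative throughout. In bulk libraries, fewer cells of a type and less RNA per cell cannot be told apart.

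**Figure D1:**
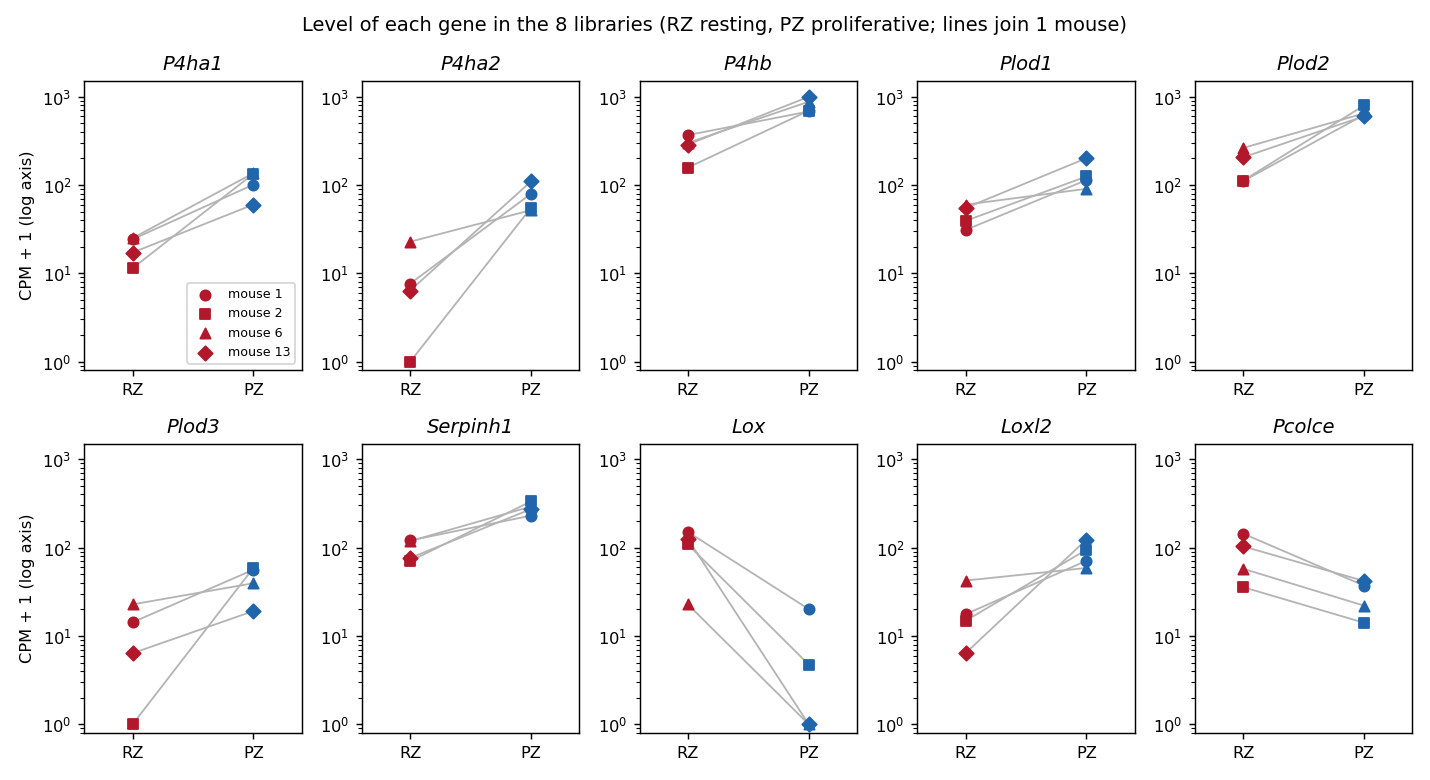
Level of each of the 10 genes in the 8 libraries, as CPM + 1 on a log axis, with the resting zone (RZ, red) on the left and the proliferative zone (PZ, blue) on the right of each panel and a line joining the libraries of 1 mouse. The zones do not overlap in 8 genes; *Plod3* and *Pcolce* overlap, and *Lox* and *Pcolce* fall from left to right in all 4 mice.

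Prolyl 4-hydroxylase is a tetramer of catalytic alpha subunits, encoded by *P4ha1* or *P4ha2*, with the beta subunit encoded by *P4hb*, which also works alone as protein disulfide isomerase. *P4ha1* (chromosome 10, 59323296 to 59373304, plus strand, 16 exonic segments) had 7, 3, 11 and 3 counts in the resting libraries of mice 1, 2, 6 and 13, and 47, 71, 77 and 13 counts in their proliferative libraries. These correspond to resting levels of 23.3, 10.4, 24.0 and 16.2 CPM and proliferative levels of 99.9, 133, 135 and 59.04 CPM. Every proliferative library was thus above every resting library, and the lowest proliferative value was that of mouse 13, the shallowest library of its zone. The means were 18.4 ± 6.41 and 107 ± 35.7 CPM (SD, n = 4 each). This was a 5.64-fold higher level in the proliferative zone, with a log2 fold change of −2.50 (SE 0.42) and an adjusted p of 0.000945 in edgeR.

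*P4ha2* (chromosome 11, 54100095 to 54131665, plus strand, 21 exonic segments) showed the largest change toward the proliferative zone among the tested members. It had 2, 0, 10 and 1 counts in resting libraries and 37, 29, 29 and 24 in proliferative libraries. In CPM this was 6.65, 0, 21.8 and 5.39 against 78.7, 54.3, 50.9 and 109. The resting library of mouse 6 held most of the resting counts, and the zones did not overlap. With a log2 fold change of −2.85 (SE 0.64) it was called at an edgeR adjusted p of 0.00510. The call was lost without the resting library of mouse 1 (adjusted p = 0.0172), the resting library of mouse 13 (0.0150) or the proliferative library of mouse 13 (0.0148). Without the resting library of mouse 6, all resting libraries were at or under 3 counts, and the proliferative level was at least 6.01-fold higher than that limit, taken per library.

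*P4hb* (chromosome 11, 120560298 to 120573253, minus strand, 11 exonic segments) was the most abundant member. Its resting libraries held 110, 45, 137 and 53 counts (365, 156, 298 and 285 CPM) and its proliferative libraries 319, 369, 499 and 219 counts (678, 691, 875 and 995 CPM). The lowest proliferative library, that of mouse 1, still lay above the highest resting library, mouse 1. The proliferative level was 2.92-fold higher (log2 fold change −1.55, SE 0.28, edgeR adjusted p = 0.00132). Relative to their partner, *P4ha1* and *P4ha2* together had 94.3 ± 39.8 counts per 1000 *P4hb* counts in resting libraries, against 229 ± 47.7 in proliferative libraries (SD, n = 4 each). This ratio was chosen after the values were seen and is given without a test. It was higher in the proliferative zone in all 4 mice, at 81.8, 66.7, 153 and 75.5 against 263, 271, 212 and 169.

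The lysyl hydroxylases differ in their substrates: LH1, encoded by *Plod1*, acts mainly on lysines of the helix, LH2, encoded by *Plod2*, on the telopeptides whose hydroxylysine gives stable crosslinks, and LH3, encoded by *Plod3*, also carries glycosyltransferase activity. *Plod2* (chromosome 9, 92542223 to 92608428, plus strand, 20 exonic segments) had 33, 32, 120 and 38 counts in resting libraries and 292, 424, 368 and 132 in proliferative libraries. The levels were 110, 111, 261 and 205 CPM against 621, 794, 645 and 599 CPM. The proliferative libraries lay close together and far above the highest resting library, that of mouse 6. The level was 3.86-fold higher in the proliferative zone (log2 fold change −1.95, SE 0.31, edgeR adjusted p = 0.000622), the lowest p-value among the 8 tested members. *Plod2* took 75.0% ± 2.55 of the counts of the 3 lysyl hydroxylase genes in resting libraries and 79.2% ± 4.38 in proliferative libraries (SD, n = 4 each, exact two-sided permutation p = 0.143), a difference within the spread between libraries.

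*Plod1* (chromosome 4, 147909753 to 147936767, minus strand, 20 exonic segments) had 9, 11, 27 and 10 counts in resting and 53, 66, 51 and 44 in proliferative libraries. The resting levels were 29.9, 38.2, 58.8 and 53.9 CPM and the proliferative levels 113, 124, 89.5 and 199.8 CPM, without overlap. Its log2 fold change of −1.51 (SE 0.37, edgeR adjusted p = 0.00868) was the weakest call of the 6. With the mouse as a block, a fit that called 6.06% of tested genes higher in the proliferative zone, the adjusted p was 0.0160 and the call was lost, and it was also lost with library size as the only scaling (0.0200). Leaving out 1 library ended the call in 5 of 8 cases, namely the resting libraries of mice 1 (0.0269), 2 (0.0204) and 13 (0.0147) and the proliferative libraries of mice 2 (0.0150) and 13 (0.0210).

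*Plod3* (chromosome 5, 136987019 to 136996648, plus strand, 17 exonic segments) was too low for the filter. It had 4, 0, 10 and 1 counts in resting and 26, 31, 22 and 4 in proliferative libraries, that is 13.3, 0, 21.8 and 5.39 CPM against 55.3, 58.1, 38.6 and 18.2 CPM. The zones overlapped, because the proliferative library of mouse 13 fell below the resting library of mouse 6. In the fit over all genes with a count, where 7.41% of genes were called and 2.68% were called higher in the proliferative zone, its log2 fold change was −2.17 (SE 0.65, edgeR adjusted p = 0.0105), just outside the threshold. It passed without the resting library of mouse 6 (log2 fold change −3.03, adjusted p = 0.000865) and without the proliferative library of mouse 13 (adjusted p = 0.00723). Exons of *Plod3* share 529 bases with *Znhit1* on the opposite strand, a gene with 11 counts in resting and 7 in proliferative libraries. The strand setting of the counting is not given in the sources used here, so that reads of this stretch cannot be assigned with certainty. The overlaps of *Plod2* with *Gm38391* (346 bases, 4 counts in resting and 10 in proliferative libraries) and of *Loxl2* with *Gm27177* (301 bases, 2 and 14 counts) were of the same kind.

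*Serpinh1* (chromosome 7, 99345376 to 99353239, minus strand, 6 exonic segments) encodes Hsp47, the chaperone of the collagen triple helix. Its resting libraries had 36, 20, 54 and 14 counts (120, 69.4, 118 and 75.4 CPM) and its proliferative libraries 108, 178, 166 and 60 counts (229.6, 333, 291 and 272 CPM). All proliferative libraries exceeded all resting libraries, and mice 2 and 13 were the lower pair in the resting zone. The proliferative level was 2.91-fold higher (log2 fold change −1.54, SE 0.28, edgeR adjusted p = 0.00135), close to the difference of *P4hb*.

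The crosslinking enzymes pointed in opposite directions. In the fit over all genes with a count, which held both, *Lox* was called toward the resting side and *Loxl2* toward the proliferative side (edgeR adjusted p = 0.000490), whereas in the filtered fit *Loxl2* missed the threshold. *Lox* (chromosome 18, 52516067 to 52529867, minus strand, 8 exonic segments), which encodes lysyl oxidase, had 45, 31, 10 and 23 counts in resting libraries and 9, 2, 0 and 0 in proliferative libraries. Its levels were 150, 108, 21.8 and 124 CPM against 19.1, 3.75, 0 and 0 CPM. The groups did not overlap, although the resting library of mouse 6 came close to the proliferative library of mouse 1. In the same fit over all genes with a count, which called 4.74% of genes toward the resting side, the log2 fold change was 3.67 (SE 0.60, edgeR adjusted p = 4.97e-08). The call held in all 14 alternatives run for this gene, but the size of the difference rested on few counts: without 1 library the fitted log2 fold change ran from 3.20 to 5.56, the highest without the proliferative library of mouse 1 and its 9 counts. Without the proliferative library of mouse 1, every proliferative library was at or under 3 counts, against which limit *Lox* was at least 12.3-fold higher in resting libraries.

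*Loxl2* (chromosome 14, 69609068 to 69695834, plus strand, 15 exonic segments) encodes lysyl oxidase-like 2. It had 5, 4, 19 and 1 counts in resting and 33, 50, 33 and 27 in proliferative libraries. This gave 16.6, 13.9, 41.4 and 5.39 CPM against 70.2, 93.7, 57.9 and 123 CPM, with the resting library of mouse 6 highest in its zone and nearest to the proliferative values. Its log2 fold change was −1.98 (SE 0.51), and the edgeR adjusted p of 0.0106 missed the threshold. It passed with DESeq2 (0.00146), with edgeR's likelihood ratio test (0.000617), with relative log expression (0.00931) or upper-quartile factors (0.00622) and in the fit over all genes, and missed the threshold under the mouse block (0.0226) and when library size was the only scaling (0.0201). Of the 8 fits without 1 library, those without the resting library of mouse 6 (log2 fold change −2.73, adjusted p = 0.00183) and without its proliferative library (0.00999) passed, and the other 6 did not (up to 0.0298). *Lox* took 90.0%, 88.6%, 34.5% and 95.8% of the counts of these 2 genes in resting libraries and 21.4%, 3.85%, 0% and 0% in proliferative libraries. The exact 95% binomial intervals, which cover counting error only, were 17.9% to 54.3% for the resting library of mouse 6 and 10.3% to 36.8% for the proliferative library of mouse 1. For the proliferative libraries at 0% they reached up to 10.6% and 12.8%.

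*Pcolce* (chromosome 5, 137605103 to 137613784, minus strand, 8 exonic segments) encodes the enhancer of the proteinase that removes the C-propeptide of procollagen. It had 43, 10, 26 and 19 counts in resting and 17, 7, 12 and 9 in proliferative libraries, or 143, 34.7, 56.6 and 102 CPM against 36.1, 13.1, 21.1 and 40.9 CPM. It was higher in the resting zone in all 4 mice, but the zones overlapped because the resting library of mouse 2 was below 2 proliferative libraries. A log2 fold change of 1.63 (SE 0.52) did not pass the threshold (edgeR adjusted p = 0.0310), nor did it with DESeq2 (0.0143), with the mouse as a block (0.0176) or in any fit without 1 library (up to 0.128, without the resting library of mouse 1), whereas it passed with edgeR's likelihood ratio test (0.00968).

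**Figure D2:**
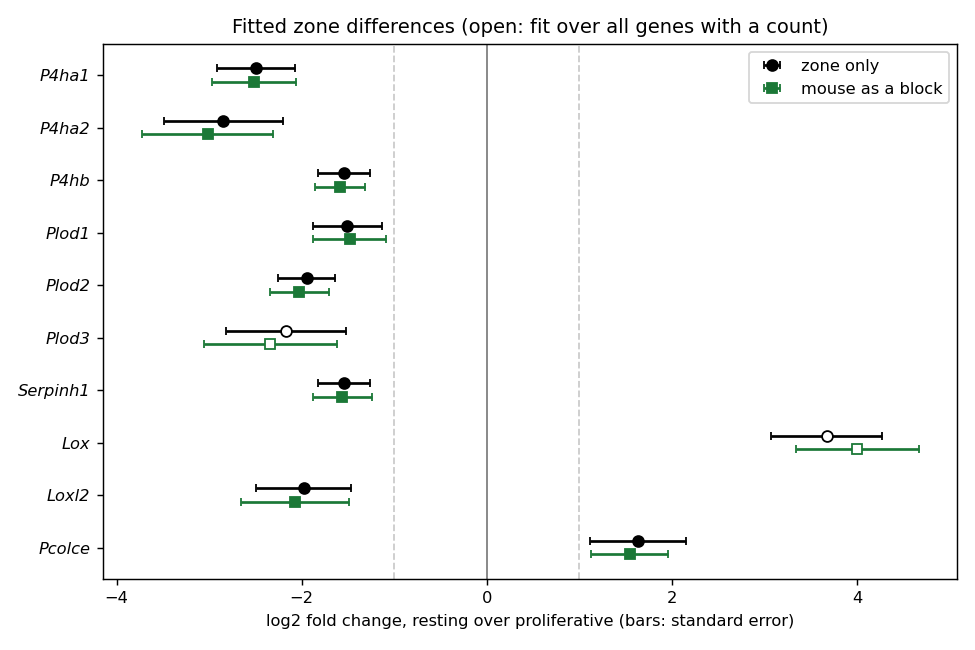
Fitted log2 fold change of each gene, resting over proliferative, with its standard error, for the model with zone only (black) and with the mouse as a block (green). Open symbols mark *Plod3* and *Lox*, read from the fit over all genes with a count; 8 genes lie below −1 and *Lox* (3.67) and *Pcolce* (1.63) lie above 1.

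Divided by exon length, the members kept a wide range of levels. In the proliferative zone *P4hb* led with 283 ± 53.3 CPM per kilobase, followed by *Plod2* (123 ± 16.4) and *Serpinh1* (115 ± 17.6), which did not differ beyond their spread (SD, n = 4). *P4ha1* (25.9 ± 8.67), *Plod1* (19.4 ± 7.06), *Loxl2* (15.9 ± 5.28), *P4ha2* (11.7 ± 4.31), *Plod3* (9.41 ± 4.07) and *Pcolce* (7.27 ± 3.38) formed a lower series in which each neighbor lay within the spread of the next. *Lox*, at 1.20 ± 1.91 CPM per kilobase, was last. In the resting zone *P4hb* (96.6 ± 30.6) again led and was followed by *Serpinh1* (39.1 ± 10.97) and *Plod2* (31.8 ± 13.8), but *Pcolce* (22.01 ± 12.6) and *Lox* (21.1 ± 11.6) stood next, above *Plod1* (6.68 ± 1.99). The RNA had been amplified by in vitro transcription before library preparation, and how evenly reads covered the exons was not tested.

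The 8 libraries also allowed the zone difference to be compared between sexes, with 2 mice of each. No tested gene passed an adjusted p of 0.01 for the zone by sex term with edgeR's quasi-likelihood test, and 250 genes (6.59%) had an unadjusted p below 0.05. Among the members only *Plod2* was below that level, with a zone difference 1.27 (SE 0.46) less negative in females on the log2 scale (unadjusted p = 0.0171, edgeR adjusted p = 0.723).

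To set these genes against their substrate, their counts were divided by those of 12 fibril-forming and associated collagens in the same library. The 10 genes together had 24.5 ± 8.24 counts per 1000 collagen counts in resting libraries and 76.4 ± 15.8 in proliferative libraries (SD, n = 4 each), and the ratio was lower in the resting library in all 4 mice. Per library it was 20.3, 16.8, 35.7 and 25.2, against 70.1, 60.8, 98.1 and 76.5. The prolyl 4-hydroxylase subunits gave 8.88 ± 3.36 against 34.3 ± 10.2, and the lysyl hydroxylases 7.16 ± 4.45 against 28.4 ± 4.07.

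This difference depended on the collagens chosen. *Col1a1*, the chain of bone and skin collagen, averaged 16603 ± 9265 CPM in resting and 873 ± 1059 CPM in proliferative libraries, whereas *Col2a1*, the chain of cartilage collagen, averaged 6508 ± 1991 and 16761 ± 4970 CPM. With the cartilage collagens alone as the denominator, an alternative added after the data were seen, the 10 genes had 92.0 ± 33.5 counts per 1000 in resting and 81.5 ± 15.8 in proliferative libraries. The zones then overlapped, and the means differed by less than the SD of either zone. In 3 of 4 mice the ratio was higher in the resting zone, and no difference beyond the spread between libraries remained in this sum. The sum mixes members of both directions: it includes *Lox* (12.8 against 0.223 counts per 1000) and *Pcolce* (9.92 against 1.04), both higher in resting libraries. A sum without these genes was not computed.

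Taken 1 at a time against the cartilage collagens, most members no longer separated the zones, and the tests used log2 ratios after adding 0.5 counts. *P4hb* had 30.8 ± 14.4 counts per 1000 in resting and 29.9 ± 8.95 in proliferative libraries (exact two-sided permutation p = 0.971), and *Serpinh1* had 10.6 ± 4.198 and 10.2 ± 2.096 (exact permutation p = 0.943). Lower means in the resting zone with overlapping libraries were found for *Plod2* (17.5 ± 3.47 against 24.2 ± 4.37, exact permutation p = 0.0857), *P4ha1* (2.00 ± 0.837 against 3.97 ± 1.75, exact permutation p = 0.0857) and *Loxl2* (1.87 ± 0.882 against 3.04 ± 0.690, exact permutation p = 0.0571), which was lower in the resting library in all 4 mice. *Plod1* (exact permutation p = 0.743) and *Plod3* (0.486) overlapped too. Zones without overlap were seen for *P4ha2*, at 0.720 ± 0.572 against 2.66 ± 0.954, and in the other direction for *Lox*, at 12.8 ± 8.21 against 0.223 ± 0.381, and *Pcolce*, at 9.92 ± 7.46 against 1.04 ± 0.507. Each of these 3 reached the smallest p that 4 against 4 libraries allow, an exact permutation p of 0.0286, which was 0.0952 after Benjamini-Hochberg adjustment over the 10 ratios. On CPM, 32.9% of all tested genes had zones without overlap in either direction. No such share was computed for ratios to the cartilage collagens. The exact permutation tests exchanged all 8 libraries and did not use the pairing by mouse.

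**Figure D3:**
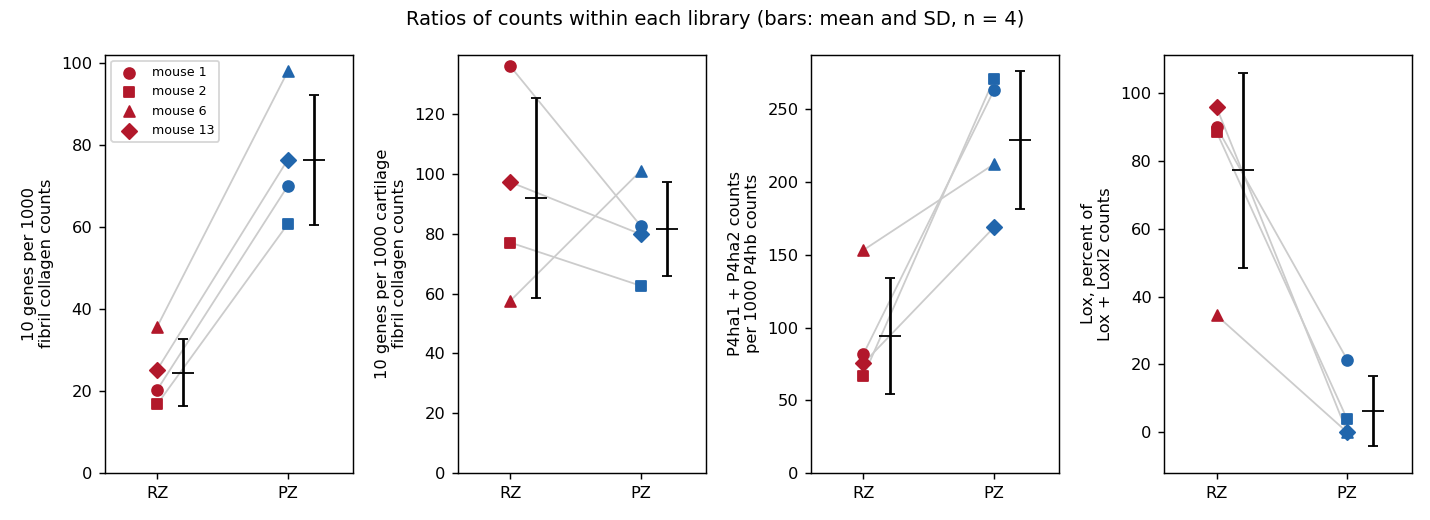
Ratios of counts within each library in the resting zone (RZ, red) and the proliferative zone (PZ, blue), with lines joining the libraries of 1 mouse and bars giving the mean and SD (n = 4 each). From left to right, the 10 genes per 1000 fibril collagen counts (24.5 against 76.4), the same per 1000 cartilage collagen counts (92.0 against 81.5), *P4ha1* and *P4ha2* per 1000 *P4hb* counts (94.3 against 229), and *Lox* as a percentage of *Lox* and *Loxl2* counts, where the SD bars run past 0% and 100%, which no share can do.

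In the wider machinery of collagen biosynthesis the calls of the filtered fit pointed to the proliferative zone. The list held 46 further genes, mainly for proline hydroxylation, glycosylation, folding, transport, processing and crosslinking. Of these, 31 were tested, 6 were called higher in the proliferative zone and none of them higher in the resting zone, against 6.93% of all tested genes in the first direction and 11% in the second. In the fit over all genes with a count, 15 of 45 were called higher in the proliferative zone (2.68% of all genes there) and 2 toward the resting side (4.74%), which are named here after their values were seen: *Adamts2*, a procollagen N-proteinase gene (log2 fold change 3.71, edgeR adjusted p = 9.79e-05), and *Loxl1*, a lysyl oxidase gene with 20 counts in resting and 0 in proliferative libraries (edgeR adjusted p = 0.00273). In the filtered fit the median log2 fold change of the list was −1.02, against −1.75 for the 8 tested members and 0.08 for all tested genes. The called genes were *Fkbp9* (−2.16) and *Fkbp14*, prolyl isomerases of the endoplasmic reticulum, *Crtap* (−1.76), a partner of prolyl 3-hydroxylase, *Kdelr2* (−1.58), the receptor that returns resident proteins to the endoplasmic reticulum, *Hsp90b1* (−1.40), a general chaperone, and *Pcolce2* (−2.14), a relative of *Pcolce*. *Pcolce2* averaged 92.8 ± 70.2 CPM in resting and 417 ± 129.99 CPM in proliferative libraries (SD, n = 4 each, edgeR adjusted p = 0.00459), opposite in direction to the values of *Pcolce*. *Fkbp14* had at most 3 counts in each resting library and was at least 4.62-fold higher in the proliferative zone than that limit. Exons of *Fkbp14* overlap *Plekha8* and exons of *Hsp90b1* overlap *1810014B01Rik* on the opposite strand. With the mouse as a block 8 genes of the list were called: *Hsp90b1* was lost (edgeR adjusted p = 0.0192), and *Colgalt2* (0.00764), *Fkbp10* (0.00662) and *Sec23a* (0.00929), named for this change, were gained.

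Because HIF-1 is known to act on several of the hydroxylase genes, a list of 28 genes of the response to low oxygen was counted in the same fit. Of the 17 tested, 13 were called higher in the proliferative zone and none of the 17 higher in the resting zone, against 6.93% and 11% of all tested genes, and the median log2 fold change of the list was −2.21. With the mouse as a block 11 were called, as *Aldoa* (edgeR adjusted p = 0.0157) and *Tpi1* (0.0111), both of glycolysis, were lost. In the fit over all genes with a count, 15 of 28 were called higher in the proliferative zone (2.68% of all genes) and 0 toward the resting side (4.74%). There *Pfkfb4*, with 15 resting and 0 proliferative counts, was not called (edgeR adjusted p = 0.0154). In the filtered fit the 4 genes not called, named after their values were seen, were *Pdk1* (−1.53), *Gapdh* (−0.02), *Mxi1* (0.14) and *Vegfa* (0.16). *Bnip3*, a mitochondrial protein of mitophagy, had 11.5 ± 7.08 CPM in resting and 264 ± 43.8 CPM in proliferative libraries (log2 fold change −4.42, edgeR adjusted p = 5.00e-05). The glycolytic genes *Eno1* (−2.83), *Pgk1* (−2.89) and *Ldha* (−2.02), the carbonic anhydrase gene *Car12* (−3.39) and *Higd1a* (−2.97), which encodes a mitochondrial inner membrane protein, were also called. Exons of *Bnip3* overlap *Gm45507* and exons of *Higd1a* overlap *Gm47112* on the opposite strand. *Lox* and *Loxl2*, which are also known as HIF-1 targets, pointed in opposite directions in the same libraries. Whether oxygen had a part in any of these differences was not tested.

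**Figure D4:**
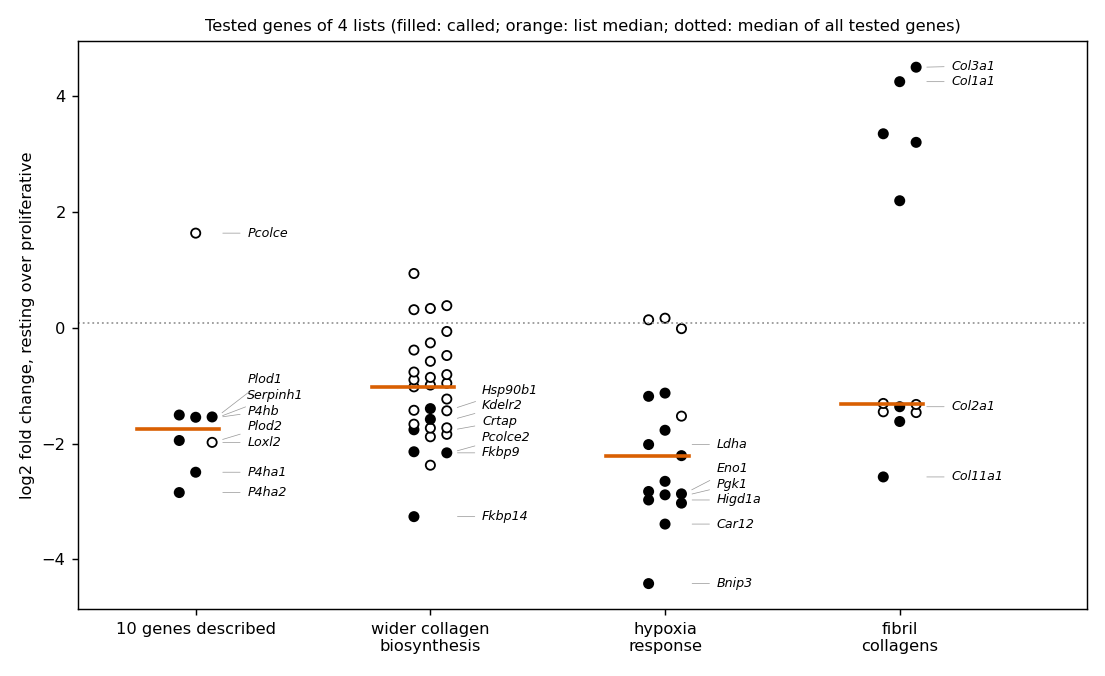
Log2 fold change, resting over proliferative, of each tested gene of 4 lists, with filled points for called genes, an orange bar for the median of the list and a dotted line at the median of all tested genes (0.08). The medians were −1.75 for the members, −1.02 for the wider list and −2.21 for the hypoxia list, and of the 12 fibril collagens 5 were called toward the resting and 3 toward the proliferative side, which became 5 and 6 with the mouse as a block and 5 and 7 in the fit over all genes with a count. The point of *Fkbp14* is a fitted value against a zone at or under 3 counts.

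Within the resting zone, the marker sum of osteoblasts and osteocytes had the same order as *Lox*. The resting libraries in descending order of *Lox* were mice 1, 13, 2 and 6, which was also their order in the summed osteoblast and osteocyte markers (40346, 25566, 25003 and 9653 CPM), and the proliferative library of mouse 1 was the highest of its zone in both (19.1 CPM of *Lox*, 4330 CPM of markers). The other proliferative libraries did not keep that order: the marker sum was 1358 CPM in mouse 13, which had no *Lox* count, 1147 CPM in mouse 2 and 749 CPM in mouse 6. Without *Col1a1* and *Col1a2*, an alternative added after the data were seen, the remaining 9 genes summed to 498 CPM in the resting library of mouse 1, 431 in mouse 13, 292 in mouse 6 and 281 in mouse 2, so that the last pair was no longer in the order of *Lox*. In proliferative libraries these genes summed to 103 to 168 CPM, with mouse 1 highest. *Mepe* and *Sost* were at 0 in all proliferative libraries. Markers of fibroblasts and marrow stroma, which also use *Lox*, summed to 805 to 1294 CPM in resting and 268 to 339 CPM in proliferative libraries, with *Thy1* at 0 in the latter. Their order was not that of *Lox*: the sum was highest in the resting library of mouse 6, which had the least *Lox* of its zone, and lowest in the proliferative library of mouse 1, which had the most. The blood and osteoclast sum descended from mouse 1 over 2 and 6 to 13 in the resting zone, another order than that of *Lox*, but in the proliferative zone its 1958, 395, 17.5 and 81.7 CPM in mice 1, 2, 6 and 13 were highest in the 2 libraries with *Lox* counts, in the same order. The endothelial sum was highest in mouse 1 in both zones, and in the other mice it did not follow *Lox*, with 174, 174 and 156 CPM in the resting and 1.87, 3.51 and 13.6 CPM in the proliferative libraries of mice 2, 6 and 13. For the hydroxylases and the chaperone the order of the resting libraries was another. The resting library of mouse 6 had the highest chondrocyte sum of its zone (19023 CPM) and was the highest resting library for 6 of the 8 members that pointed to the proliferative zone, the exceptions being *P4hb* and *Serpinh1*, which were highest in mouse 1. This mouse 6 library was the deepest of its zone (462044 counts), and the share of all genes that were highest in it was not computed. The same library was also the highest of its zone for the hypertrophic list (2338 CPM, against 996 to 1691 CPM in the other resting libraries) and for the wider collagen list (11537 CPM, against 7462 to 8416 CPM). In resting libraries the hypertrophic sum came mainly from *Ibsp*, *Mmp13* and *Spp1* (means of 609, 589 and 374 CPM), with *Col10a1* at 8.59 and *Ihh* at 0 CPM. The part of either cell mixture in the zone differences was not tested.

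**Figure D5:**
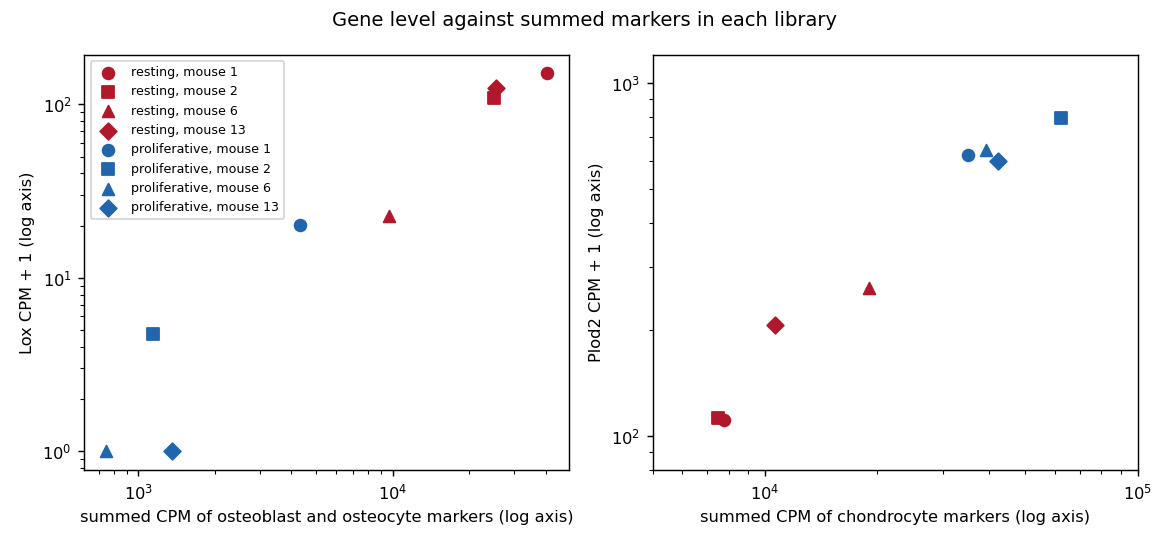
Level of *Lox* against the summed osteoblast and osteocyte markers (left) and of *Plod2* against the summed chondrocyte markers (right) in each of the 8 libraries, all as CPM on log axes, with 1 added to the gene levels. *Col1a1* and *Col1a2* make up most of the osteoblast and osteocyte sum. The resting libraries (red) lie at 9653 to 40346 CPM of osteoblast and osteocyte markers, and the proliferative libraries (blue) at 35126 to 62402 CPM of chondrocyte markers.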

How the data were processed

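RNA from microdissected cells was amplified by in vitro transcription and sequenced. Reads were trimmed with BBDuk, mapped to GRCm38 with HISAT2 2.1.0 and assigned to genes with HTSeq 0.11.2 (versions from the submitters' processing notes), and the authors deposited whole-number counts of 43629 genes without normalization. In a second deposited table the authors gave a signal per library (CPM scaled by TMM factors) for 11840 genes with their own fold changes and p-values, and only its gene names were used. Gene positions are from GENCODE M21 and promoters from RefSeq.

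Counts were tested with edgeR 4.0.16 in R 4.3.3 by zone, after edgeR's filter (minimum count 10, minimum total 15), with TMM factors, the quasi-likelihood test and Benjamini-Hochberg adjustment over all tested genes. Alternatives were DESeq2 1.42.0, other scalings and filters, the mouse as a block and leaving out each library. On simulated counts, 79 of 94 genes changed by 2 on the log2 scale were recovered. The 10 genes and all lists were chosen with earlier results of these data known. Of each list, up to 6 called genes in each direction with the lowest p were named. Both libraries of a mouse come from 1 animal, so that mouse number pairs them; their deviations from the zone means correlated at 0.164, 0.0138, 0.137 and 0.0575 (mice 1, 2, 6 and 13), against means of −0.0535 to −0.00535 with other mice.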

Additional observations from a re-analysis of the deposited data

How the results depend on the processing

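Over the 10 genes, 167 alternative values kept their direction, 139 also kept their side of the threshold, 15 fell below it and 13 passed it. With the mouse as a block, 614 genes were called (384 toward the resting side), 5 members, 8 of the wider list and 0 for the zone by sex term, and among the members no call other than that of *Plod1* changed. The reported fit called 682 genes, 61.4% of them toward the resting side. That number was 1297 over all genes with a count, 273 (51.3% higher in the resting zone) with at least 10 counts in every library, 289 (71.6%) when a log2 fold change of 1 was the null, 1061 at an adjusted p of 0.05 and 442 to 821 when 1 library was left out, the lowest without the proliferative library of mouse 2. Upper-quartile factors gave 48.6% and library size alone 72.7% in the resting direction. These scalings moved the median log2 fold change of all genes by −0.22 and 0.19, and the fit over all genes, from which *Lox* and *Plod3* were read, moved it by −0.23.

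Of the members, 3 of 3 tested were called with at least 10 counts in every library, where 273 of 1483 genes were called. When 1 library was left out, 4 to 8 of the 9 or 10 members tested were called, beside 442 to 821 of all genes. With a log2 fold change of 1 as the null, 1 of the 8 members in the filtered fit was called (*P4ha1*), beside 289 of all 3793 tested genes. *Lox* was called with that null in the fit over all genes. The 6 calls of the wider list stood beside 682 calls over all genes, and the totals of the other fits follow in brackets. The calls became 15 with the likelihood ratio test (952), 14 with DESeq2 (847), 11 with upper-quartile factors (698) and 17 over all genes (1297). They were 2 with at least 10 counts in every library (273), 2 with the null of 1 (289) and 15 at an adjusted p of 0.05 (1061). When 1 library was left out, they ran from 3 (442, without the proliferative library of mouse 2) to 12 (821, without the resting library of mouse 6). The zone by sex term called 12 genes with the likelihood ratio test and 27 over all genes. The ratio to collagen was −1.67 on the log2 scale with all 12 collagens and 0.12 with the cartilage collagens alone, the alternative added after the data were seen, a change of sign within the spread between libraries. Both sums hold *Lox* and *Pcolce*, which pointed to the resting zone, beside members that pointed the other way. The cause of the other changes was not tested. *P4ha1*, *P4ha2*, *Plod3*, *Lox*, *Loxl2* and *Pcolce* rest on 0 to 19 counts a library in their lower zone, which limits the precision of their folds.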

Other observations

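Other lysyl oxidases and procollagen proteinases were chosen after their values were seen. *Loxl1* was at least 2.20-fold higher in resting libraries against a limit of 3 counts per library. *Loxl3* was at 1263 ± 169 CPM in resting and 1321 ± 297 CPM in proliferative libraries (SD, n = 4 each, log2 fold change −0.07), a difference within the spread, and its exons overlap *Htra2* on the opposite strand. *Adamts2*, which acts mainly on fibrillar procollagens of bone and skin, had 56 resting and 5 proliferative counts. *Adamts3*, which is known to act on procollagen II, had 1 and 25 counts, and its edgeR adjusted p of 0.0253 in the fit of every gene with a count missed the threshold.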
